A study of Mus musculus with 109 samples.

Results

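The centromere-proximal sites described here are the HindIII sites that lie at or below position 10000000 (mm9) of mouse chromosomes 1 to 19, leaving out chromosomes 8, 16 and 17. They number 37535 of the 670204 HindIII sites of these 16 autosomes, a share of 5.6%, and of 823352 sites in the whole table. Each chromosome gave 1982 (chr19) to 2511 (chr9) of them, and the first site of a chromosome lay between 3000031 (chr5) and 3055913 (chr9), after the unsequenced stretch that opens each mouse assembly. The sites were chosen by position alone, without reference to any read count. They hold or touch 995 protein-coding genes of the GENCODE annotation.

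Mouse autosomes carry their centromere at the end from which the assembly is numbered, so the lowest coordinates of every autosome lie beside pericentromeric satellite DNA. In interphase nuclei the satellite blocks of several chromosomes gather into chromocentres, dense heterochromatic bodies that often lie at the nuclear edge or beside a nucleolus. Sequences next to the satellite blocks of different chromosomes can therefore come close to each other, and a proximity ligation assay reads such meetings as contacts in trans, that is, between different chromosomes.

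4C-seq, circular chromosome conformation capture, cuts crosslinked chromatin with HindIII, ligates fragments that lay together and sequences the partners of a chosen bait fragment. The cells were C127, an established line from a mouse mammary tumour, and the 6 baits used here lie along chromosome 8. All groups came from this line, with no genetic change named in the labels: per the labels' protocols, cultures were held in mitosis with nocodazole for 4 h and collected as mitosis or after release for 30 min, 1, 2, 3 or 4 h, as G2 after 15 h of release, and as G0 after 5 days without serum. The assay reads DNA, so the cell type could not be checked against RNA markers. The series follows how contacts form in early G1 around the time when the replication timing program is set. For these sites the question was whether the bait nearest to the centromere of its own chromosome met the centromere-proximal ends of other chromosomes more often than the baits farther away did.

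The bait primers, which end in the HindIII site from which ligation is read (capitals), show how far each bait lies from the centromeric end. Each matched the mm9 genome once, on the plus strand of chromosome 8. B7 lies at chr8:7223950-7223970, B26 at chr8:26774313-26774332, B44 at chr8:44417335-44417354, B53 at chr8:52961959-52961978, B87 at chr8:87434064-87434081 and B118 at chr8:118459309-118459328. B7 itself thus lies within the first 10 Mb of its chromosome.
B7: tattaggacagacagAAGCTT
B26: ttgagtttgacgccAAGCTT
B44: ggtcatccctttagAAGCTT
B53: aaacatgtttggccAAGCTT
B87: gggcggagatggAAGCTT
B118: cctcatacagctggAAGCTT

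The 3 member sites shown next are those captured in all 11 B7 libraries. They are extremes, since most captured members were seen in few libraries. Each is shown as 66 bases of mm9 on the plus strand with the HindIII site in capitals. The site at 4213147 of chr11 (chr11:4213117-4213182) is intergenic, 32670 bp from Hormad2, a gene for a protein of the meiotic chromosome axis. The site at 4058367 of chr5 (chr5:4058337-4058402) lies in an intron of Akap9, which encodes a scaffold protein of the centrosome and Golgi. The site at 3064539 of chr11 (chr11:3064509-3064574) lies in an intron of Sfi1, which encodes a centrin-binding protein of centrioles. The first 2 were captured almost only with B7 and the Sfi1 site with every bait, as given below.
Site near Hormad2: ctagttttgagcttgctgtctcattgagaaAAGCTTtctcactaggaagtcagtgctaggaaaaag
Site in Akap9: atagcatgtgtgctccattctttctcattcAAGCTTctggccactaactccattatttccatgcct
Site in Sfi1: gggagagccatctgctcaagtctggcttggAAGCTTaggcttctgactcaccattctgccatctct

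The 6 baits gave 70 columns of 266006 to 8826711 reads (median 2985117), and in all of them the labelled bait had more reads within 100 kb than any other bait. The technical replicates labelled 2 h were merged, which left 64 libraries: 11 per bait, and 10 for B87 and B118, which had no library labelled mitosis. The other 39 columns, all labelled with a bait of another chromosome or with a release time not listed above, were left out. In 4 of them the labelled bait had the most reads nearby, and in 35 another bait did. Labels also went against the data among the libraries used. At the member sites, 65.7% to 97.0% of the captured sites of the smaller library were common to the libraries labelled 1 h replicate 2 and 2 h technical replicate 1, 5.98 to 22.3 times the number that independent capture gives. For the pair of 2 h technical replicates this share was 10.7% to 26.3%, or 2.06 to 3.02 times that number. For G0 replicate 1 with 1 h replicate 2 it was 9.36% to 61.0%, or 2.17 to 12.4 times. For the 2 G0 replicates it was 4.04% to 35.3%, or 2.52 to 5.1 times. Each library is therefore called by its label only. Nothing shows that baits with the same label came from separate cultures, so p-values measure the spread between these libraries, which may be technical.

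A site counted as captured in a library when it had 1 read or more. Of the members, 59.7% were captured in at least 1 of the 64 libraries, against 67.2% of the other sites of the 16 autosomes. The members more often lay in sequence that repeats at other HindIII sites: 79.9% had at least 1 flank of 24 bases found at no other HindIII site, against 89.6% of the rest. Among sites with such a unique flank the captured shares were 74.1% and 74.6%, and among sites without one they were 2.40% and 3.04%. The median GC content of the surrounding 1 Mb was 40.9% for members and 41.5% for the rest. The measure used below is the log2 ratio of the share of captured trans sites that were members to their 5.6% share of all HindIII sites, called the proximal enrichment; 0 means no enrichment.

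B7 captured the centromere-proximal ends of other autosomes more often than their number of sites gives. Its libraries captured 202 to 2407 member sites, and members made up 5.43% (30 min replicate 2) to 8.27% (G0 replicate 1) of captured trans sites, with 6.29% as the middle value. In G0 replicate 1 the 95% Wilson interval was 7.81% to 8.77%, and in 30 min replicate 2 it was 5.08% to 5.81%. These intervals cover counting error only, because PCR reads without molecular identifiers are not independent molecules. As proximal enrichment the B7 libraries gave 0.56 and 0.20 for G0 replicates 1 and 2, 0.48 for mitosis, 0.47 and 0.17 for 1 h replicates 1 and 2, and 0.18 for 2 h. The library labelled 30 min replicate 1 gave 0.13, 4 h gave 0.05, G2 gave 0.03, and 30 min replicate 2 and 3 h gave -0.04 each. Thus 3 libraries stood high and 2 lay below 0. The mean was 0.199 ± 0.214 (SD, n = 11, 9 above 0), which differed from 0 in an exact two-sided sign-flip permutation test (adjusted p = 0.0105 over the 6 baits). Without the libraries labelled 1 h replicate 2, 2 h and G0, whose labels are in doubt at some or all baits, the call was lost. The mean was then 0.154 (7 libraries, exact permutation adjusted p = 0.169). This setting also leaves out the highest B7 value, that of G0 replicate 1. At B7 that library shared 3.52 times the independent number of sites with 1 h replicate 2 and 5.1 times with G0 replicate 2.

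**Figure D1:**
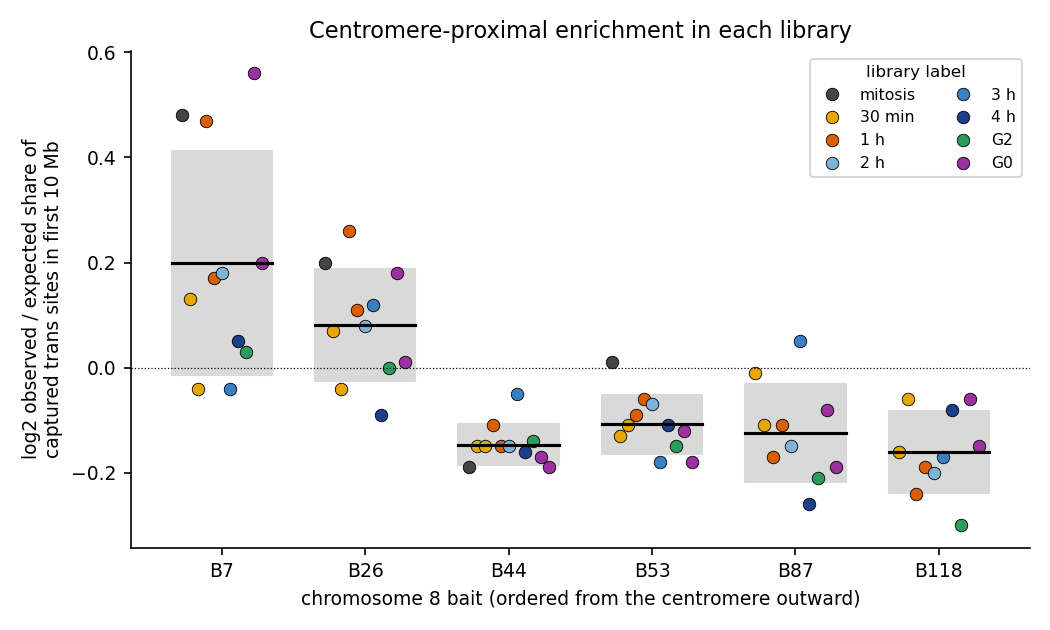
Proximal enrichment (y axis, log2 of the observed over the expected share of captured trans sites in the first 10 Mb of 16 autosomes) of each library, by bait from the centromere outward. Points are libraries coloured by label, black lines are means and grey boxes are mean ± SD (n = 11, or 10 for B87 and B118); B7 averages 0.199 and B118 -0.161.

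Among the remaining baits B26, the next along the chromosome, lay above the 4 baits farther out, whose means ran from -0.161 to -0.107. B26 ranged from -0.09 (4 h) to 0.26 (1 h replicate 1) with a mean of 0.0825 ± 0.106 (SD, n = 11, 9 above 0, exact permutation adjusted p = 0.0322). That call was narrow: it was lost when any 1 of the libraries labelled mitosis (0.0704), 1 h replicate 1 (0.0649), 1 h replicate 2 (0.0796), 2 h (0.0823), 3 h (0.0790) or G0 replicate 1 (0.0730) was left out. B44 ranged from -0.19 to -0.05 with a mean of -0.146 ± 0.0387 (n = 11, 0 above 0, exact permutation adjusted p = 0.00391). B53 ranged from -0.18 to 0.01 (mean -0.107 ± 0.0567, n = 11, 1 above 0, exact permutation adjusted p = 0.00391). B87 ranged from -0.26 to 0.05 (mean -0.125 ± 0.0943, n = 10, 1 above 0, exact permutation adjusted p = 0.00879). B118 ranged from -0.30 to -0.06 (mean -0.161 ± 0.0792, n = 10, 0 above 0, exact permutation adjusted p = 0.00391). The B7 libraries did not overlap those of B44 or B118, while B26 overlapped every other bait.

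The values below 0 at B44, B53, B87 and B118 moved with the repeated sequence among the members. Counted only over sites with a unique flank, an alternative added after the data were seen, the means were 0.00888 at B44, 0.0466 at B53, 0.0282 at B87 and -0.00620 at B118. B53 then lay above 0 (exact permutation adjusted p = 0.0254) and the other 3 did not pass. In the same count B7 gave 0.352 and B26 gave 0.238 (exact permutation adjusted p = 0.00293 for each). A level below that of all HindIII sites was therefore not measured for these 4 baits once repeated flanks were set aside. A level above it was measured at B7 and B26 and, to a smaller extent, at B53.

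The contrast between baits was nearly the same in both counts. Sites without a unique flank were seldom captured and the expected share is common to all baits, so this count could hardly change the contrast. Within a label, B7 stood above the mean of the other baits in 11 of 11 labels, by 0.01 (3 h) to 0.61 (G0 replicate 1). It ranked highest of all baits in 9 labels, came after another bait at 30 min replicate 2 and after 2 others at 3 h. The mean difference was 0.285 ± 0.192 (SD, n = 11 labels; 0.199 for B7 against -0.0856 for the others, two-sided permutation test, p = 4e-05). It was 0.283 over sites with a unique flank, 0.242 when sites were compared within deciles of GC content, and 0.237 without the libraries labelled 1 h replicate 2, 2 h and G0 (exact permutation p = 0.0035). Against B53, which like B7 lies in a GC-poor stretch without genes but in the middle of the chromosome, B7 was higher by 0.306 ± 0.192 (n = 11, in 11 of 11 labels, permutation p = 5e-05). Against B26, a comparison added once B26 was seen to come next, the difference was 0.117 ± 0.148 (SD, 9 of 11 labels). It did not pass in the main permutation test (p = 0.124), which does not keep labels as pairs, and its call changed with the setting. It passed within labels (exact sign-flip permutation p = 0.0273) and in the first 20 Mb (0.173, permutation p = 0.0114). As a share of reads it also passed (0.345, permutation p = 0.013). Reads were concentrated, however: Sfi1 took 10.7% of B7 reads at members, and 2 sites captured almost only with B7 took 8.29%.

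The B7 enrichment was lowest in the 4 libraries with the smallest shares of reads on chromosome 8. In the 4 B7 libraries with under 60% of reads there (47.5% to 56.7%; 30 min replicate 2, 3 h, 4 h and G2) the enrichment was -0.04 to 0.05. In the other 7 libraries (68.7% to 87.2% of reads on chromosome 8) it was 0.13 to 0.56, with a middle value of 0.20, so the ranges did not overlap. The difference from the other baits was 0.01 to 0.19 in the former labels and 0.21 to 0.61 in the latter. B26 gave -0.09 to 0.12 and 0.01 to 0.26 under the same split. The former hold every B7 library labelled 3 h, 4 h or G2, so at these stages the share and the stage cannot be told apart. The part that this share plays in the enrichment was not tested. The split is by the B7 libraries, at a cut of 60% set after the data were seen. Among the 7 libraries above it, G0 replicate 2, with the largest share (87.2%), gave 0.20 and G0 replicate 1 (79.1%) gave 0.56. Some libraries of other baits that bear the 4 labels below the cut held a larger share. Without these 4 labels, a setting added after the data were seen, B7 exceeded the mean of the other baits by 0.385 and B26 alone by 0.183. These 4 labels also hold the 4 lowest B7 values, so a larger difference follows from leaving them out and is given without a test.

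**Figure D2:**
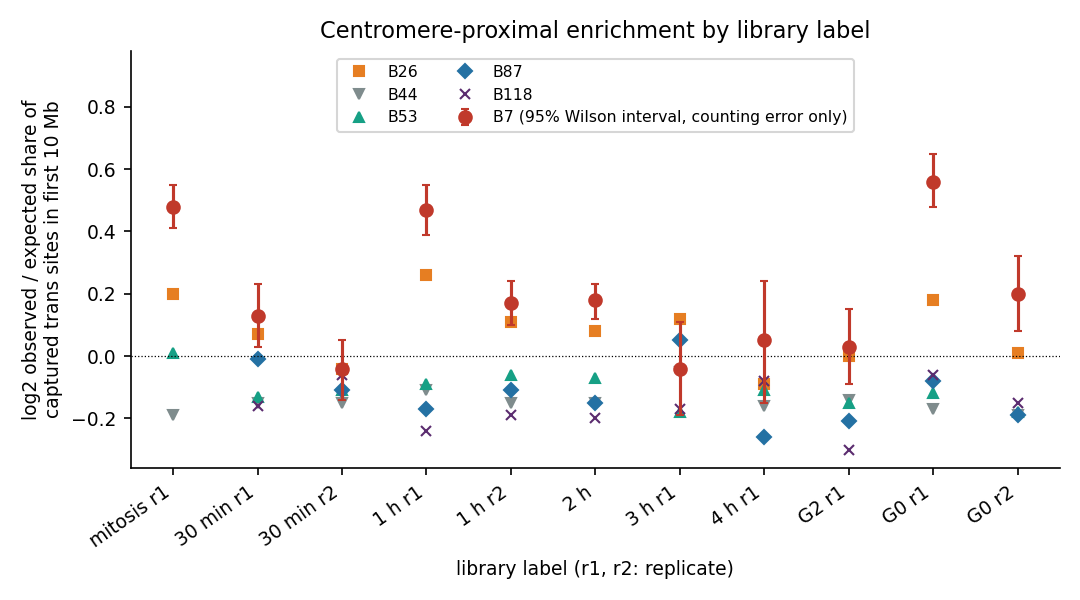
Proximal enrichment (y axis, log2) by library label (x axis) for the 6 baits; red circles are B7 with 95% Wilson intervals that cover counting error only. B7 is highest in 9 of the 11 labels, and at 30 min replicate 2 and 3 h it lies among the other baits.

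No difference between the first hour and 2 to 4 h was detectable. Over the 6 baits, libraries labelled 2 to 4 h differed from those of the first hour (30 min and 1 h) by -0.0317 ± 0.0521 (SD, n = 6 baits, above 0 at 2, exact sign-flip permutation p = 0.219), where 6 baits allow no p under 0.0312. Within 5 Mb of the chromosome start the sign turned, to 0.0430. At B7 the means were 0.182 in the first hour and 0.0619 at 2 to 4 h (4 against 3 libraries, exact permutation p = 0.543). The difference between B7 and the other baits was 0.262 and 0.156 in these groups (exact permutation p = 0.486). Libraries labelled G0 stood 0.0533 ± 0.138 above 2 to 4 h over the 6 baits (above 0 at 3, exact permutation p = 0.531), and -0.0140 without G0 replicate 1. These comparisons rest on few libraries per bait, some of which share sites across labels, so they do not show that the stages were equal. Mitosis and G2 were not part of them, and an order over all stages was not tested. By stage, B7 gave 0.48 in mitosis, 0.04 at 30 min, 0.32 at 1 h and 0.18 at 2 h. It gave -0.04 at 3 h, 0.05 at 4 h and 0.03 in G2, the stages whose B7 libraries all had under 60% of reads on chromosome 8.

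The B7 enrichment itself was highest at 3 to 5 Mb, and values above 0 ran past the 10 Mb boundary. Pooled over the 16 autosomes, B7 gave a log2 enrichment of 0.338 at 3 to 4 Mb, 0.368 at 4 to 5 Mb, 0.265 at 5 to 6 Mb and 0.141 at 6 to 7 Mb. Between 7 and 9 Mb it was 0.0740 and 0.0724, and just inside and just outside the boundary it was 0.121 (9 to 10 Mb) and 0.184 (10 to 11 Mb). It was 0.118 at 20 to 30 Mb and 0.135 at 30 to 40 Mb, lay nearer to 0 from 40 to 60 Mb (0.00980 and 0.0527) and was below 0 beyond 60 Mb, with -0.145 at 100 to 120 Mb. The difference of B7 from the mean of the other baits was 0.374 ± 0.22 at 3 to 4 Mb (SD, n = 11 labels, above 0 in 10), 0.174 ± 0.324 at 6 to 7 Mb (8 of 11), 0.238 ± 0.187 at 10 to 11 Mb (11 of 11) and 0.398 ± 0.221 at 18 to 19 Mb (10 of 11). Up to 20 Mb this difference thus showed no steady fall with distance. It was 0.154 ± 0.0941 at 20 to 30 Mb (10 of 11). At 70 to 80 Mb it was -0.118 ± 0.0684 (0 of 11). Shares of a library add up to a whole, so higher shares at the start of chromosomes go with lower shares elsewhere. B26 gave 0.224 at 3 to 4 Mb, -0.0602 at 7 to 8 Mb and 0.202 at 30 to 40 Mb. Its difference from the 4 baits farther out was 0.335, 0.244 and 0.123 at these distances. Over sites with a unique flank B7 reached 0.576 at 3 to 4 Mb.

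**Figure D3:**
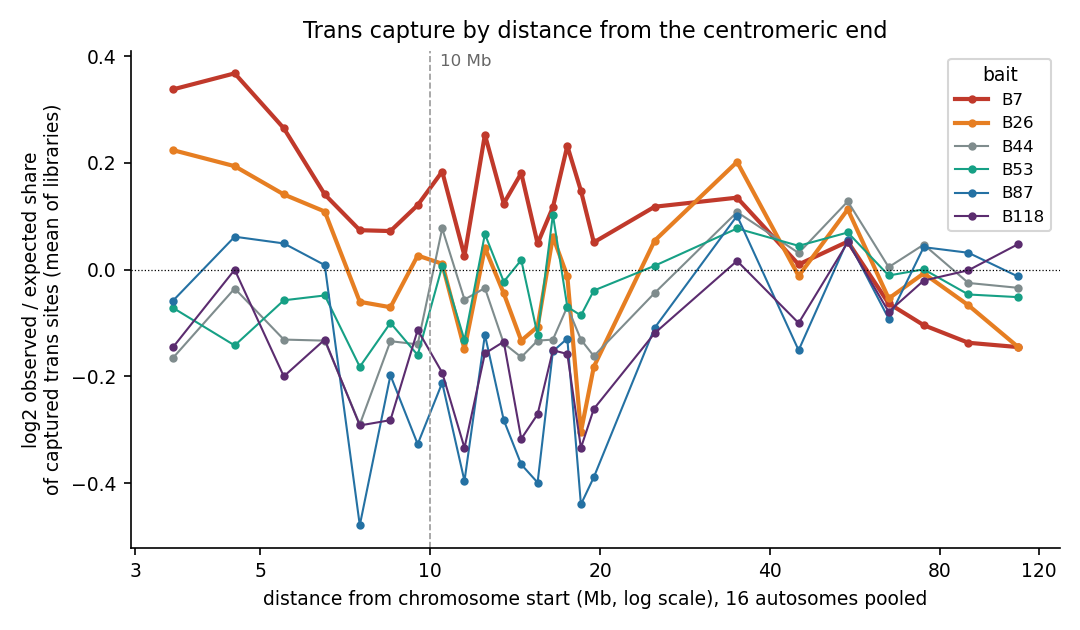
Mean log2 enrichment of captured trans sites (y axis) by distance from the chromosome start (x axis, Mb, log scale), 16 autosomes pooled, 1 line per bait. B7 falls from 0.338 at 3 to 4 Mb to -0.145 at 100 to 120 Mb, and B26 is the next highest at each step up to 10 Mb.

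The distal ends of the same chromosomes gave another order of baits. In the last 7 Mb, described here without a test, B7 had a mean of 0.04 ± 0.12 (n = 11) and its proximal value exceeded its distal one in 9 of 11 libraries. B26 gave 0.11 ± 0.11 distally, with the proximal value higher in 4 of 11 libraries. The baits nearest to the far end of chromosome 8 had the highest distal values, 0.29 ± 0.15 at B87 and 0.33 ± 0.12 at B118 (n = 10 each). In none of the libraries of B44, B53, B87 or B118 was the proximal value the higher. Both values were counted over all sites. Over sites with a unique flank the proximal means were higher, as given above, and the distal ends were not counted in that way. The part of repeated flanks in these counts of libraries was therefore not tested.

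To ask which chromosomes contribute, captured sites were counted in 221 windows of 10 Mb on the 16 autosomes and each bait was compared with the mean of the other 5 in edgeR's quasi-likelihood test. With B7, 12 of the 16 first windows were higher at an adjusted p of 0.05, against 23.5% of all windows, and 0 were lower, against 19% of all windows (0 also at an unadjusted p of 0.05 and in DESeq2). Their median log2 difference was 0.31, against -0.01 over all windows, and 15 of 16 were above 0, against 48.4% of all. Without the libraries labelled 1 h replicate 2, 2 h and G0, 50.0% of the first windows were higher, against 75.0% with them, and 20.8% of all windows were called in either direction, against 42.5% with them. Counting reads in place of captured sites gave 37.5% of first windows higher and 20.5% of all windows called. The fit treats libraries as independent, although some share sites as given above.

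Chromosome 1 showed the largest difference of B7 from the other baits. Its first 10 Mb gave 14 to 177 captured sites per B7 library, a log2 enrichment of -0.11 (3 h) to 0.69 (mitosis and 1 h replicate 1) with a mean of 0.37 ± 0.25 (SD, n = 11), and -0.22 ± 0.15 for the mean of the other baits. B7 was higher in 10 of 11 labels, the exception being 3 h, and the log2 fold change was 0.69 ± 0.08 (SE, adjusted p = 5.86e-13). Chromosomes 5, 3, 15 and 4 followed with log2 fold changes of 0.58, 0.52, 0.50 and 0.48 (adjusted p = 7.1e-11, 7.28e-10, 5.84e-11 and 1.54e-07). On chromosome 15, B7 was above the mean of the other baits in 11 of 11 labels, by 0.01 (G2) to 0.83 (mitosis). Chromosome 13 gave 0.41, chromosomes 6 and 11 gave 0.33 each, chromosome 2 gave 0.30 and chromosome 12 gave 0.27. Chromosomes 9 and 10 were called at 0.22 each (adjusted p = 0.0164 and 0.0192), but chromosome 10 was not called by DESeq2 (adjusted p = 0.0519).

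The first windows of chromosomes 7, 14, 18 and 19 did not pass. Chromosome 7 gave 0.24 ± 0.12 (SE, adjusted p = 0.105), chromosome 14 gave 0.30 ± 0.15 (adjusted p = 0.108), chromosome 18 gave 0.17 ± 0.08 (adjusted p = 0.0783) and chromosome 19 gave -0.02 ± 0.08 (adjusted p = 0.84). Chromosomes 7 and 14 were those with the most repeated flanks: 48.6% and 23.3% of their members had a unique flank, against 78.4% to 92.8% on the other 14. Only 12.5% of the chromosome 14 members were captured in any library, and B7 captured 1 to 20 of them per library. Chromosome 19 was not low with B7 (0.57 ± 0.22, n = 11), but the mean of the other baits was nearly as high there (0.54 ± 0.13, SD over labels). That mean joined high values at B26 (0.88) and B87 (1.05) with lower ones at B44 (0.30), B53 (0.16) and B118 (0.31). By label, B7 stood above the mean of the other baits on 8 (30 min replicate 2 and 3 h) to 16 (1 h replicate 1 and G0 replicate 1) of the 16 chromosomes.

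**Figure D4:**
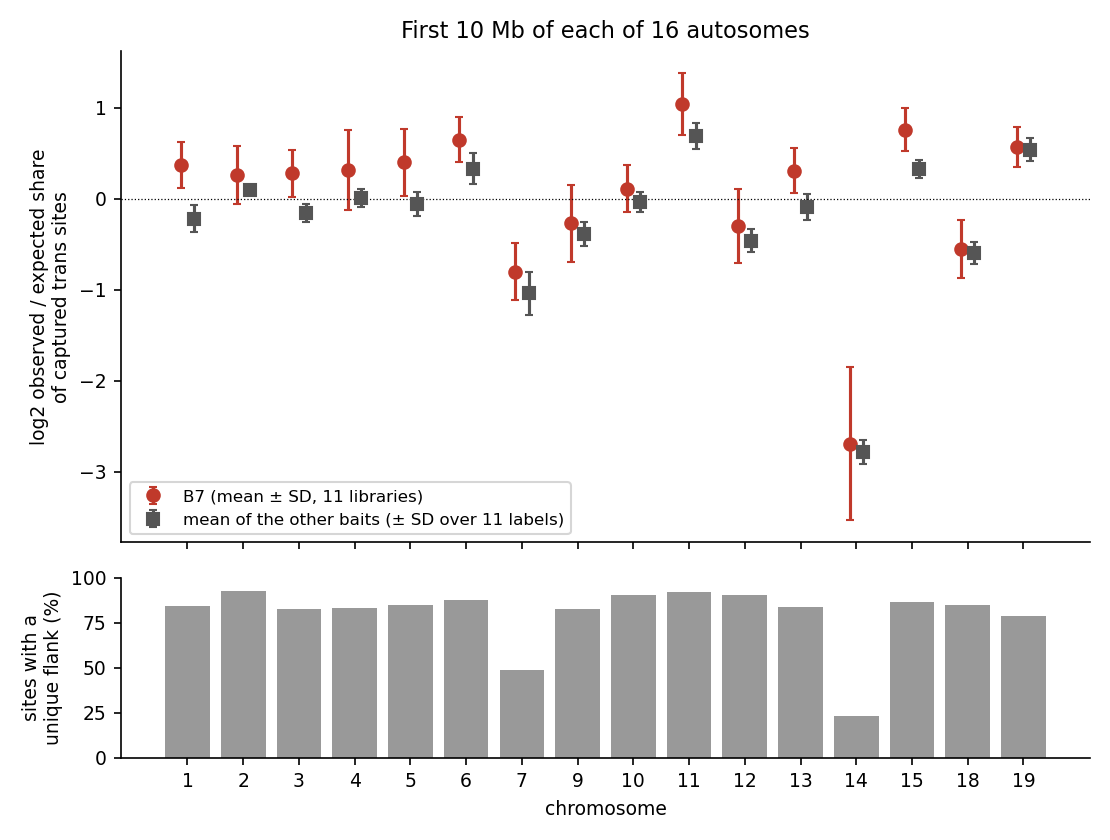
Upper panel: log2 enrichment (y axis) of the first 10 Mb of each autosome (x axis) for B7 (red, mean ± SD of 11 libraries) and the mean of the other baits (grey, mean ± SD over 11 labels); lower panel: percent of member sites with a unique flank. B7 lies above the other baits' mean on all 16, from 0.04 on chromosome 19 (-0.02 with edgeR's scaling) to 0.59 on chromosome 1. Chromosome 14, with 23.3% unique flanks, is lowest for every bait.

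Absolute levels differed more between chromosomes than between baits. Chromosome 11 was highest with B7 (1.04 ± 0.34, n = 11) and with the mean of the other baits (0.69 ± 0.14), chromosome 15 gave 0.76 and 0.33, and chromosome 6 gave 0.65 and 0.33. Chromosome 18 was low with both (-0.55 and -0.60). Chromosomes 12, 15, 18 and 19 carry ribosomal RNA gene clusters beside their centromeres in many mouse strains. Their median difference of B7 from the other baits was 0.10 (0.04 to 0.43), against 0.31 (0.08 to 0.59) on the other 12 chromosomes. These are descriptions of 4 and 12 chromosomes, without a test.

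The windows after the first were called as often as the first with B7. At 10 to 20 Mb, 14 of 16 windows were higher (median log2 difference 0.39), at 20 to 30 Mb 12 of 16 (0.22), at 30 to 40 Mb 5 (0.09), at 40 to 50 Mb 6 (0.10) and at 50 to 60 Mb 0 (-0.01). From 70 to 100 Mb 0 of 44 windows were higher and 15 were lower. Among the 20 windows with the largest differences, 7 were first windows, including the 3 largest, and every other one began at 10 or 20 Mb. The windows called higher with B7 thus lay mostly within the proximal 30 Mb.

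**Figure D5:**
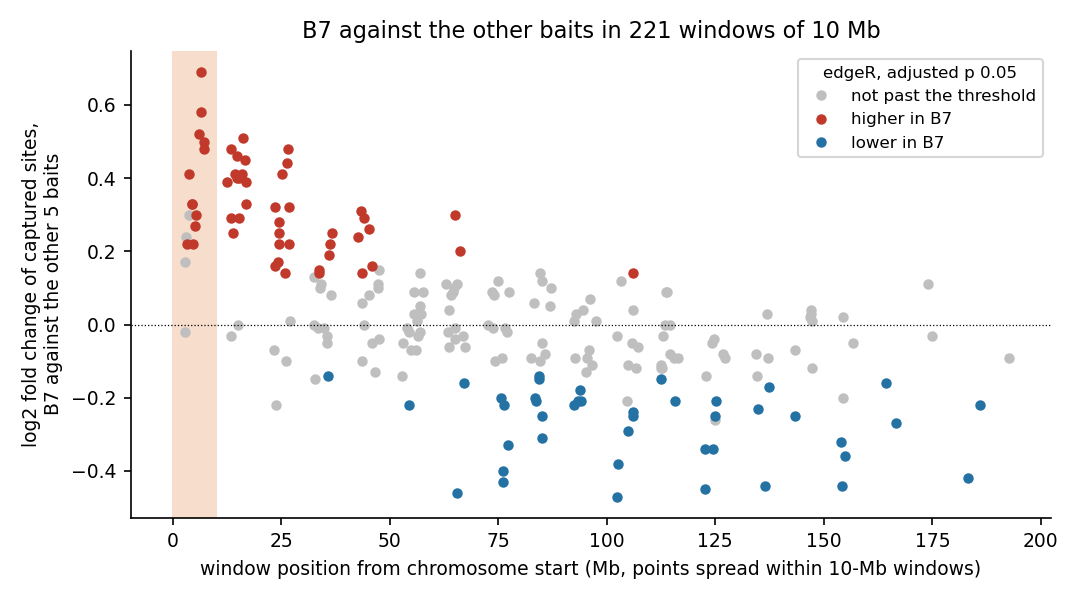
Log2 fold change of captured sites in B7 against the other 5 baits (y axis) in windows of 10 Mb by distance from the chromosome start (x axis, Mb; points spread sideways within a window), coloured by edgeR call at an adjusted p of 0.05. The shaded first windows hold 12 higher and 0 lower windows of 16, and windows lower in B7 lie mostly beyond 70 Mb.

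Fewer first windows were called higher with each of the other baits. With B26, 7 of 16 were higher, against 14.9% of all windows, and 0 were lower (0 also at an unadjusted p of 0.05 and in DESeq2), against 14.5%. They were those of chromosomes 19 (0.43), 11 (0.33), 13 (0.30), 18 (0.25), 15 (0.24), 2 (0.22) and 4 (0.18), while chromosomes 1, 3 and 5, the largest with B7, gave -0.05, 0.09 and 0.01. Those of chromosomes 2, 4, 11, 13 and 15 were also called higher with B7. With B44, 3 were higher, against 28.5% of all windows, and 9 were lower, against 32.1%, with chromosome 7 at 0.82 (adjusted p = 3.3e-14), 10 at 0.38 and 9 at 0.16 as the higher ones. B87, in a gene-rich block, had 2 higher, against 29.4%, on chromosomes 19 (0.65, adjusted p = 1.93e-12) and 11 (0.18), and 8 lower, against 33.9%. B53 had 1 higher, chromosome 3 (0.20), against 19.9%, and 4 lower, against 19%. B118 had 0 higher (0 also at an unadjusted p of 0.05 and in DESeq2), against 20.4%, and 7 lower, against 24.9%. These 6 comparisons share libraries, since each bait is part of the mean that the others are set against.

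At the scale of 1 Mb, the first bin of chromosome 11 was the most enriched. It spans 3000001 to 4000000, holds 292 HindIII sites and 24 protein-coding genes, among them Sfi1, Drg1, which encodes a GTP-binding protein, Patz1, a zinc finger transcription factor gene, and Limk2, which encodes a kinase acting on cofilin. B7 gave 2.24 ± 0.60 there (SD, n = 11), the mean of the other baits 1.76 ± 0.35, and B7 was higher in 10 of 11 labels by 0.48 on average. The 22 Sfi1 sites gave 51.7% of the B7 captures in this bin and 43% of those of the other baits. Without them B7 gave 1.23 ± 0.72, the other baits 0.79 ± 0.22, and B7 was higher in 7 of 11 labels. The lowest bin was the first of chromosome 14 (3000001 to 4000000), with 348 sites and 19 protein-coding genes, nearly all gene models without a name. Only 1.15% of its sites had a unique flank, and B7 captured 0 of its sites. B7 also captured 0 sites in other bins of chromosomes 7 and 14. Values of such bins come from the 0.5 added to counts, so the rank among them follows their numbers of sites. Over the 85 bins with at least 100 sites and 80% unique flanks, B7 was above the mean of the other baits in 71, with a median difference of 0.268. Across these bins, which share libraries and neighbours and are described without a test, enrichment rose with GC content less for B7 (Spearman rho 0.265) than for the mean of the other baits (0.435), and the difference between them gave -0.199.

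The bin with the largest difference among the larger bins, chosen after its values were seen, was 4000001 to 5000000 of chromosome 5. It holds 5 protein-coding genes, among them Akap9, Fzd1, a Wnt receptor gene, and Cdk14, a cyclin-dependent kinase gene. B7 gave 1.28 ± 0.32 (SD, n = 11) and the mean of the other baits 0.12 ± 0.21, with B7 higher in 11 of 11 labels. Its 193 B7 captures, summed over libraries, include sites at 4058367 (11 libraries), 4359698 (8) and 4879063 (9). The first bin of chromosome 1, which holds only Xkr4, gave 0.66 ± 0.33 against -0.18 ± 0.20, again in 11 of 11 labels. The GC contents of these bins were 41.1% and 38.7%, against a median of 40.9% over the members.

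Most member contacts were seen in few libraries. Of the members, 79.8% were captured in 0 of the 11 B7 libraries, 13.6% in 1 and 4.94% in 2. Captured in 6 or more were 46 members, 0.123% of them, against 0.0743% of all sites of the 16 autosomes. Of these 46, 16 lay in Sfi1 and 30 elsewhere. The members made up 9.24% of all sites that recurred in this way with B7, and 6.22% outside Sfi1, near their 5.6% share of sites. Without all sites that recurred in 6 or more libraries of any bait, a setting added after the data were seen, B7 still exceeded the mean of the other baits by 0.282 (permutation p = 6e-05), close to the 0.285 with them.

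Of the 8 members captured in the most B7 libraries, 2 were nearly particular to that bait and 6 lay in Sfi1. The site near Hormad2 shown above was captured in 11 of 11 B7 libraries and in 2 of 53 libraries of the other baits. Its reads ran from 30 (mitosis) to 6614 (G0 replicate 1) with a middle value of 1598. The Akap9 intron site was captured in 11 of 11 B7 libraries and 3 of 53 others, with 59 (mitosis) to 17089 reads (30 min replicate 1) and a middle value of 2053. Both were thus present in every labelled stage, and the captures with other baits came from B44 at both sites and from B118 at the site near Hormad2. Reads at these 2 sites made up 8.29% of all B7 reads at members.

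The sites were also compared with the B7 primer, since a primer can bind at a similar sequence. The 15 bases before the HindIII site in the B7 primer matched 5 bases at the site near Hormad2 and 5 at the Akap9 site, which is the median over all members (95th percentile 8, highest 12). Of the 30 recurrent members outside Sfi1, 20 were captured in under 10% of the other libraries, on 8 chromosomes, and matched a median of 6 bases (2 to 10). Of the 20, 8 matched at least 8 bases, against 8.86% of all members, and 4 matched at least 9, against 3.02%. The part of this likeness in their capture was not tested. Named after their values were seen, they include sites near Klf6 on chromosome 13 (9 of 11 B7 libraries, 0 of 53 others at 5821847) and within Cdk14 on chromosome 5 (9 of 11, 3 of 53, at 4879063). The site at 5821847 matched 5 primer bases and that at 4879063 matched 9.

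The 6 Sfi1 sites behaved otherwise. The intron site shown above was captured in 11 of 11 B7 libraries with 1 to 2567 reads and also in 45 of 53 libraries of the other baits, among them 11 of 11 of B26 and 10 of 11 of B44. The other 5, at 3073379, 3069902, 3032987, 3069798 and 3078155, were captured in 10 of 11 B7 libraries each and in 35 to 46 of the 53 others. Sfi1 (chr11, 3031853 to 3093466) holds 22 HindIII sites, and 17 of the 27 members captured in over 25% of all libraries lie in it. All 22 have a flank that is unique among HindIII sites of mm9. Copies away from HindIII sites or missing from mm9 were not looked for. Sfi1 took 10.7% of B7 reads at members and 3.46% of those of the other baits, but only 1.39% and 0.978% of captured member sites. Reads at this locus were thus present whatever the bait, and it held a small part of the captured sites summed over all members, though a large part of those in its own 1-Mb bin.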

How the data were processed

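The authors deposited whole-number read counts for every HindIII site, without normalization. The submitters' processing notes name BWA 0.5.9 and mm9; filters on reads are not given in the sources used here. Positions equalled the HindIII sites of mm9 and are 1-based. Coordinates and genes come from the supplied mm9 sequence and GENCODE annotation.

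From the counts, captured sites (1 read or more) were computed per library; 0.5 was added to counts per chromosome, bin or distance step before log2. Reads are PCR products, so sites rather than reads were the main measure. Proximal enrichment was tested with sign-flip permutations (all enumerated), baits with 100000 permutations, over labels for B7 against the mean of the other baits. Windows were tested with edgeR 4.0.16 (R 4.3.3; TMM, filterByExpr, glmQLFit robust) on captured sites in 1 fit over 64 libraries, with Benjamini-Hochberg adjustment over all windows and baits at 0.05; DESeq2 1.42.0 was an alternative. Python 3.11.15, numpy 2.4.6, scipy 1.17.1 and pandas 2.3.3 were used. The scripts were tested on simulated data.

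Members, lists and tests were chosen with earlier results of these data known. Sites named are the 8 captured in the most B7 libraries, ties broken by the larger difference from the other baits; named bins are those with the highest and lowest B7 mean among bins of at least 100 sites; genes are those at these places. Exceptions are marked as chosen after their values were seen. All first windows are given for B7 and only called ones for other baits, except where chromosomes 1, 3 and 5 are compared. No sequence of chromosome 18 is printed. Alternatives were other read minimums, region ends, chromosome sets, expected shares, libraries left out, a replicate block, another tool, no filter, reads and 5-Mb windows.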

Additional observations from a re-analysis of the deposited data

How the results depend on the processing

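B7 against the mean of the other baits kept its direction and call in 26 of 26 alternatives (0.237 to 0.574), and so did B7 against B53 (0.221 to 0.512). Of these, the count over sites captured at least once cannot change a contrast between baits (0.285 and 0.306, as in the main tests). The count over unique flanks can hardly change it. The enrichment of B7 kept its call in 24 of 25, the exception being the fit without the libraries labelled 1 h replicate 2, 2 h and G0. In that setting the means were 0.154 (B7), 0.0752 (B26), -0.136 (B44), -0.108 (B53), -0.119 (B87) and -0.169 (B118), and no bait passed; fewer libraries remain there. Leaving out 1 library at a time gave 0.163 to 0.223 (B7), 0.0649 to 0.0997 (B26), -0.155 to -0.142 (B44), -0.119 to -0.0994 (B53), -0.144 to -0.109 (B87) and -0.172 to -0.145 (B118). It gave 0.252 to 0.312 for B7 against the others, 0.268 to 0.329 against B53, 0.0897 to 0.144 against B26, -0.0483 to -0.0109 for 2 to 4 h against the first hour and -0.0140 to 0.121 for G0. Over sites with a unique flank B44, B53, B87 and B118 gave 0.00888, 0.0466, 0.0282 and -0.00620, and over sites captured at least once 0.0154, 0.0546, 0.0366 and 0.000615. As a share of reads B53 gave 0.0188, B87 -0.0565 and B7 against B26 0.345. In the first 5 Mb B87 gave 0.00348, B118 -0.0699, 2 to 4 h against the first hour 0.0430 and G0 against 2 to 4 h -0.00404. In the first 20 Mb B26 gave -0.0104 and B7 against B26 0.173. Within GC deciles B87 gave -0.0184. Without sites captured in over 25% of libraries B26 gave 0.0503, and without recurrent sites 0.0495. Without the 4 labels in which under 60% of B7 reads lay on chromosome 8, which also hold the lowest B7 values, B7 against B26 gave 0.183. The causes of these changes were not tested.

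Libraries share label and replicate. Deviations of same-labelled libraries correlated above 0.1 in 7 of 15 pairs of baits (-0.369 to 0.776), so labels were not taken as pairs in the main tests. For the contrasts tested, the correlation of B7 was 0.547 with the mean of the other baits, 0.496 with B53 and 0.776 with B26. With the replicate block, which keeps labels as pairs, the difference of B7 from B26 stayed 0.117 and passed (exact permutation p = 0.0273). The other 2 contrasts kept their calls (exact permutation p = 0.000977 each).

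Window calls, as a percent of first windows or of all windows, moved when reads replaced captured sites and when libraries were left out. With reads, higher first windows were 37.5% (B7), 0% (B26), 6.25% (B44) and 6.25% (B87), lower ones 12.5% (B44, B53 and B118) and 18.8% (B87), and all calls 20.5% (B7), 4.91% (B26), 21% (B44), 14.7% (B53), 28.6% (B87) and 10.7% (B118). Without the libraries labelled 1 h replicate 2, 2 h and G0, higher first windows were 18.8% (B26), 0% (B53) and 6.25% (B87), lower ones 31.2% (B44), 6.25% (B53), 18.8% (B87) and 25% (B118), and all calls 20.8% (B7), 8.14% (B26), 27.6% (B44), 12.7% (B53) and 16.7% (B118). With 2 reads or more B87 had 6.25% higher, and in 5-Mb windows B53 had 9.68% higher. Leaving out 1 library gave 62.5% to 81.2% higher first windows at B7, 37.5% to 43.8% at B26, 12.5% to 18.8% at B44, 0% to 6.25% at B53 and 6.25% to 12.5% at B87. Lower ones were 50.0% to 62.5% at B44, 18.8% to 31.2% at B53, 37.5% to 56.2% at B87 and 31.2% to 56.2% at B118, and all calls ran from 20.4% (lowest, B26) to 63.5% (highest, B87), with 36.7% to 42.8% at B7, up to 32.1% at B26, 49.8% to 62.4% at B44, 24.9% to 40.5% at B53, from 52.5% at B87 and 33.0% to 48.4% at B118. Libraries labelled 3 h and 4 h had the fewest captured sites, which limits single chromosomes there.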
